A study of Mus musculus with 12 samples.

Results

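Met, Capza2, St7, Lsm8, Wnt2 and Tes are 6 genes of mouse chromosome 6, taken from the 21743 genes of a single-cell count table. Met, Capza2 and St7 were picked for their high levels in MT1, a mammary tumor of one mouse, and Tes, Wnt2 and Lsm8 as genes of the same stretch of chromosome. The levels in MT1 against the other tissues are therefore given as a description with no test. All 6 genes are described over all 21157 cells, cell by cell and by cell class.

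Both donor animals (2 mice, strain C57BL/6 and 129/Sv mixed) carried MMTV-Cre and Brca1 flox/flox, so that every group shares the Brca1 deletion and there is no wild-type control. MMTV-Cre is active mainly in mammary epithelium, so the other cells of the tissue may keep Brca1. MG1 and MT1 are the fourth mammary glands and the tumor of mouse 1, and MG2 and MT2 are those of mouse 2. The labels give no age for these 2 animals, and each group is 1 tissue of 1 mouse. Hematopoietic and endothelial cells had been depleted before Drop-seq, a droplet method that tags the RNA of each cell with a cell barcode and each molecule with a unique molecular identifier (UMI).

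MG1 held 818 cells in 2 libraries, MG2 2335 cells in 2 libraries, MT1 7690 cells in 5 libraries and MT2 10314 cells in 3 libraries. Libraries held 693333 to 14841414 UMIs, and the median cell of a library 1784 to 4842 UMIs. Any pair of libraries shared 0 to 7 cell barcodes. Libraries of one tissue are not separate animals, so every p-value below measures only the spread between libraries, which may be technical. Outside the stromal classes, Brca1 UMIs numbered 0 (MG1), 18 (MG2), 200 (MT1) and 410 (MT2), which includes any transcript left by the deletion. Of the 7504 cells of MT1 and 9880 of MT2 outside the stromal classes, 5743 and 96 had an Epcam UMI without being Cav1-high by the rule below, and 400 and 21 had both markers, so that the defining epithelial marker was nearly absent from MT2.

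Met is the receptor tyrosine kinase for hepatocyte growth factor, which is made mostly by mesenchymal cells and acts on epithelium. In the mammary gland this pair is known for its part in ductal branching. Capza2 is the alpha subunit of the capping protein that closes the fast-growing ends of actin filaments, and works as a pair with a beta subunit. St7 was described as a candidate tumor suppressor, and its molecular function is less well known. Lsm8 is a subunit of the nuclear Lsm ring that binds U6 RNA in splicing. Wnt2 is a secreted Wnt ligand, and Tes (testin) is a LIM domain protein of focal adhesions and actin fibers.

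In the GENCODE annotation of GRCm38, the genes lie on chromosome 6 in the order Tes (chr6:17065149-17105828), Cav2, Cav1, Met (chr6:17463800-17573980), Capza2 (chr6:17636234-17666972), St7 (chr6:17692933-17943025), Wnt2 (chr6:17988940-18030585) and Lsm8 (chr6:18848579-18855751). Wnt2 is on the minus strand and the other 5 are on the plus strand. Cav2 and Cav1, between Tes and Met, encode the caveolins of cell-surface pits and are not among the 6.

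The promoter sequences of Met, Capza2 and St7 are shown because these are the 3 genes whose UMIs were high together in MT1. They are from RefSeq's promoter windows of GRCm38.p6 on the plus strand, 5′ to 3′, for chr6:17463707-17463799 (Met), chr6:17636760-17636982 (Capza2) and chr6:17693744-17693946 (St7, the first of 3 listed starts). Each starts 250 bases before the RefSeq start and ends before the first exon of a protein-coding transcript in GENCODE. Noncoding transcripts of Capza2 and St7 start further upstream, so both stretches lie inside the annotated spans of these genes, that of St7 within an exon of a transcript with a retained intron. Capitals mark the GC box GGGCGG, searched on both strands.
Met: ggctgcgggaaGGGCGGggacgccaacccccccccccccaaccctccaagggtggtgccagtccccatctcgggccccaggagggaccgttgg
Capza2: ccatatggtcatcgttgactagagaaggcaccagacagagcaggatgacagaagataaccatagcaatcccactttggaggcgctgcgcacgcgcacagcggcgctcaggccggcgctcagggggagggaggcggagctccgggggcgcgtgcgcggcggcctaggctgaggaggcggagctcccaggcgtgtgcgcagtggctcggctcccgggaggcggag
St7: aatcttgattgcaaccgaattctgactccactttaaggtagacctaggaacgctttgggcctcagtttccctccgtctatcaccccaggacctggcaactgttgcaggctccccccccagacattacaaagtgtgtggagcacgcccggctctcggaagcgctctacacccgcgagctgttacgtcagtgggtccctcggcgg
The stretches differ: Met has 1 GC box, and Capza2 and St7 have 0. In the whole window, 250 bases before to 50 after the start, Met had 3, Capza2 1 and St7 0, and 35.7% of all 32851 promoters held at least 1. TATAAA, on both strands, was found 1 time in the St7 window and 0 times in those of Met and Capza2, against 13.6% of all promoters that held it. Neither motif was in all 3 windows, and a match is a description, not a site.

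Met was high in every MT1 library and low in every other one. Levels are CPM, the share of UMIs scaled in the usual way, summed over the cells of a library outside the fibroblast, endothelial and immune classes (the stromal classes, defined below). Met was 2796, 2560, 2768, 2475 and 2477 CPM in the 5 MT1 libraries, 173 and 74.5 in MG1, 114 and 141 in MG2, and 155, 142 and 129 in MT2. The lowest MT1 library was above the highest of the others, while those of MG1, MG2 and MT2 overlapped. The MT1 mean, 2615 ± 157 (SD, n = 5 libraries), was 21.1 times that of MG1 and 18.4 times that of MT2.

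Capza2 gave the most UMIs of the 6. It was 13763, 12673, 11076, 11685 and 11877 CPM in MT1 (12215 ± 1037, SD, n = 5), 495 and 163 in MG1, 226 and 234 in MG2, and 435, 490 and 463 in MT2. The 2 MG1 libraries lay on either side of those of MG2, and MT2 lay above MG2. By UMIs over the whole tumor, Capza2 was the gene ranked 3 of 21743 in MT1 and 313 in MT2. Capza1, the gene of the other widely expressed alpha subunit, had group means of 28.5 to 42.4 CPM in all 4 tissues, so that the high level in MT1 was not shared by the paralog.

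St7 was 737, 623, 712, 636 and 801 CPM in MT1 (702 ± 73.6, SD, n = 5), against 14.97 and 21.6 in MG1, 14.1 and 12.1 in MG2, and 12.98, 19.4 and 14.4 in MT2. The 7 libraries outside MT1 overlapped. Its paralog St7l had group means of 6.92 to 26.0 CPM. Met, Capza2 and St7 together took 1.44 to 1.71% of the UMIs of an MT1 library and 0.0260 to 0.0648% elsewhere.

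Lsm8 and Tes did not follow this order. Lsm8 was 68.7, 44.7, 42.1, 52.0 and 86.3 CPM in MT1, inside the range spanned by MG1 (64.0 and 17.6) and MT2 (115, 138 and 117). Its highest levels were the 3 MT2 libraries (123 ± 12.8, SD, n = 3), above the libraries of MG2 (34.1 and 39.8). Tes was 179, 161, 195, 167 and 187 CPM in MT1, close to MG2 (178 and 172), with MT2 below (92.3, 118 and 88.6) and MG1 split (469 and 178). Wnt2 was rare, with 81 UMIs in MT1 (2.33 to 6.28 CPM per library), 2 in MG1 (0.748 and 0 CPM), 1 in MG2 and 3 in MT2. In these cells every MT1 library was above every other one. Over all cells, stromal ones included, they overlapped, at 3.37 to 7.28 CPM in MT1, 2.88 and 4.52 in MG1, 1.65 and 3.39 in MG2 and 0.135 to 0.424 in MT2.

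**Figure D1:**
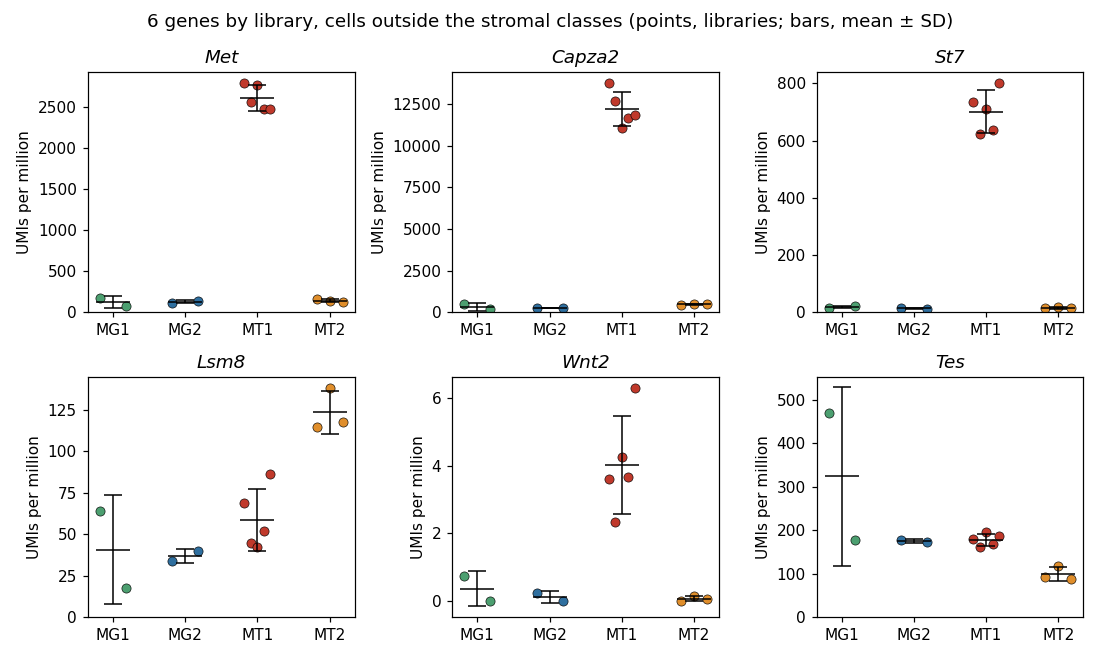
CPM in cells outside the stromal classes (vertical axes, linear, own scale per gene) for each library (points) of the 4 tissues, with mean ± SD (bars). Met, Capza2 and St7 lie far above the other tissues in all 5 MT1 libraries, while Lsm8 is highest in MT2 and Tes is highest in 1 MG1 library.

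For MT1 over MG1, edgeR's fitted log2 difference was 5.09 (SE 0.38) for Capza2, 4.24 (SE 0.29) for Met and 5.35 (SE 0.25) for St7. For Wnt2 it was 2.61 (SE 0.86), for Lsm8 0.17 (SE 0.33) and for Tes -0.98 (SE 0.25). The MG1 sums include 7 cells described below. Without these cells the ratio of the MT1 and MG1 means moves from 0.550 to 0.868 for Tes, from 1.44 to 2.42 for Lsm8 and from 37.1 to 56.4 for Capza2. The fitted differences all include them. The MT1 over MG1 values chose Met, Capza2 and St7 and are no test of them. MT1 over MT2 uses the same MT1 libraries and gave 4.67, 4.15 and 5.44 for Capza2, Met and St7, with -1.14 for Lsm8 and 0.78 for Tes.

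In MT1 high counts were seen in nearly every cell rather than in a few. The part of RNA from other cells in these counts was not tested. An MT1 cell held a median of 24 Capza2 UMIs (1st percentile 1, 99th percentile 123, highest 475), and 27 of 7690 cells had none. The median was 5 UMIs for Met (highest 88) and 1 for St7 (highest 39). In MT2 the highest cell had 17 Capza2, 8 Met and 2 St7 UMIs.

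Because depth differs between cells, each cell was also thinned at random to 1000 UMIs, and no cell was too shallow for this. Thinned MT1 cells held a median of 10 Capza2 UMIs, with a 5th percentile of 3 and a 95th of 24, and the medians of the 5 libraries were 10 to 12. The distribution had a single broad hump, with 78 of 7690 cells at 0. Its variance was 4.23 times its mean (3.79 to 5.08 between libraries), which was the fifth highest of the 36 genes with a mean of at least 2 thinned UMIs, above Actb (2.25) and Krt18 (2.72). For Met the ratio was 1.97, ranked 17, and for Capza2 in MT2 it was 1.01, where a Poisson count gives a ratio of 1. The ratio tends to rise with the mean, which was 11.6 thinned UMIs for Capza2 in MT1 and 0.455 in MT2. In MT1 Actb had a mean of 6.13, Krt18 2.65 and Met 2.57, so the ratios do not rank variability at equal level.

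Shares of cells with a UMI depend on depth and are given unthinned and thinned, outside the stromal classes. Capza2 was seen in 99.8% of MT1 cells (99.5% thinned), 75.1% of MT2 cells (36.1%), 48.3% of MG1 cells (17.2%) and 44.1% of MG2 cells (18.3%). Met was seen in 95.8% of MT1 cells (85.1% thinned), 40.1% in MT2 (13.1%), 27.1% in MG1 (8.001%) and 25.3% in MG2 (10.1%). St7 was seen in 70.2% of MT1 cells (45.6% thinned) and in 1.09 to 2.23% of thinned cells of the other tissues.

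**Figure D2:**
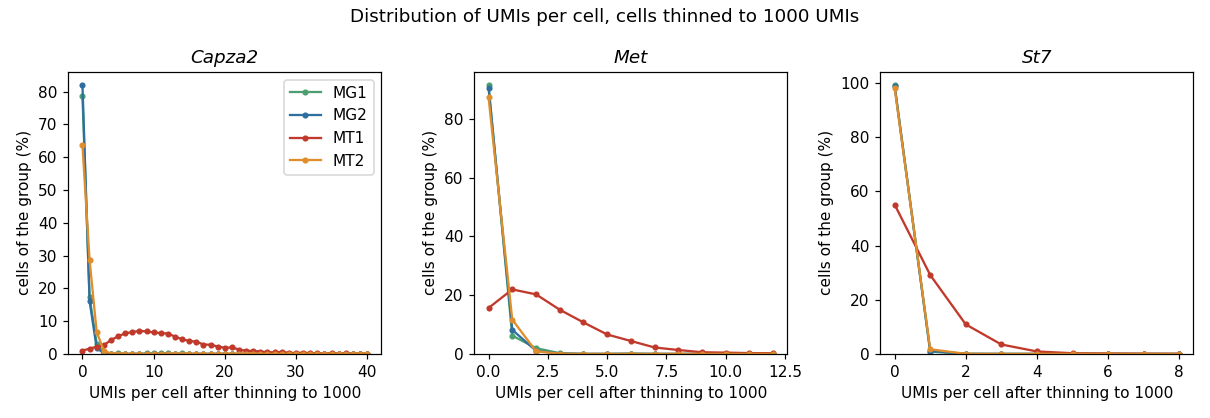
Percent of the cells of each tissue (vertical axis) by the number of Capza2, Met or St7 UMIs left after thinning to 1000 UMIs per cell (horizontal axis). MT1 Capza2 forms a broad hump with a median of 10 UMIs, while the other tissues have their highest share of cells at 0.

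A cell was called high in Capza2 when its thinned count was above the 99th percentile of gland cells, which was 2 UMIs. By this rule 7322 of 7690 MT1 cells were high, with library shares of 92.9 to 97.2% (95.2 ± 1.59%, SD, n = 5). The exact 95% binomial interval, which covers counting error only, was 90.8 to 94.7% for the lowest library and 95.8 to 98.2% for the highest. In MT2 118 of 10314 cells were high (1.10 ± 0.166%, SD, n = 3), in MG2 4 of 2335 and in MG1 9 of 818. All 9 MG1 cells were in library 1, and 0 of the 105 cells of library 2 were high, which allows up to 3.45% (exact 95% interval). Above the 99th percentile of gland cells in Capza2, Met and St7 at once were 583 MT1 cells (7.58%) and 0 cells of MG1, MG2 and MT2.

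The 368 MT1 cells without high Capza2 held more cells with markers of other types than the tumor as a whole. They were 59 fibroblast (16.0%, against 1.35% of all MT1 cells), 48 endothelial (13.04%, against 1.04%), 22 hormone-sensing (5.98%), 146 Epcam-positive (39.7%), 42 Cav1-high, 13 Epcam-positive and Cav1-high, and 38 with neither marker. Seen the other way, Capza2 was high in 97.4% of Epcam-positive cells, 95.6% of Cav1-high cells, 43.3% of fibroblast cells, 40.0% of endothelial cells and 31.3% of hormone-sensing cells.

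These classes were set by markers, not by clustering. Fibroblast cells had at least 6 of 11 fibroblast markers, endothelial cells 3 of 10 and immune cells 3 of the 9 in the table. Hormone-sensing cells had at least 3 of 6 markers of hormone-receptor-positive luminal cells. Of the rest, Epcam-positive cells had at least 1 UMI of Epcam, an epithelial adhesion protein, and Cav1-high cells at least 5 UMIs of Cav1. MT1 held 104 fibroblast, 80 endothelial, 2 immune, 32 hormone-sensing, 5712 Epcam-positive and 952 Cav1-high cells, 399 with both markers and 409 with neither. Doublets were not removed. The Cav1-high class is set on a gene of the same stretch of chromosome.

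Capza2 was highest in the Epcam-positive cells of MT1 and lower in the Cav1-high and stromal classes. Its level was 12657 ± 1065 CPM in Epcam-positive cells (SD, n = 5 libraries), 11859 ± 1613 in cells with both markers, 10288 ± 918 in Cav1-high cells and 10934 ± 2999 in cells with neither. It was 4008 ± 1670 in fibroblast cells, 4194 ± 1651 in endothelial cells and 3774 ± 2611 in hormone-sensing cells (4 libraries). In each of the 5 libraries the summed stromal cells were below the tumor cells, at 3307 to 4909 CPM against 11076 to 13763.

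Met was 2676 ± 167 CPM in Epcam-positive cells, 2517 ± 181 in Cav1-high cells and 1900 ± 399 in cells with neither marker, and 957 ± 404 in fibroblast and 864 ± 421 in endothelial cells (SD, n = 5). St7 was 710 ± 69.3 in Epcam-positive, 625.1 ± 79.8 in Cav1-high, 237 ± 130 in fibroblast and 311 ± 77.8 in endothelial cells. For both, the summed stromal cells were below the tumor cells in each of the 5 libraries.

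Fibroblast and endothelial cells of MT1 thus held far more of the 3 genes than those of the other tissues. Capza2 in fibroblast cells was 232 CPM in MG1, 164 in MG2 and 325 ± 85.3 in MT2 (SD, n = 3), and Met was 68.6, 23.3 and 54.7. The MT1 fibroblast cells also held UMIs of epithelial genes. Against Epcam-positive cells, summed over libraries, they had 29.0% of the Capza2, 32.5% of the Met and 31.6% of the St7 level, beside 18.5% (Epcam) to 30.9% (Cdh1) for the epithelial genes Epcam, Krt7, Krt8, Krt18, Cldn3, Cldn4, Cldn7 and Cdh1. Endothelial cells had 37.4% of Capza2, 35.3% of Met and 45.2% of St7, beside 29.5% (Cldn3), 29.96% (Cldn7), 33.2% (Cldn4), 35.4% (Krt7), 47.4% (Krt18), 47.6% (Epcam), 50.5% (Cdh1) and 55.3% (Krt8) of the epithelial genes. The part of free or doublet RNA in these levels was not tested.

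Capza2 UMIs per Met UMI were 4.74 ± 0.377 in Epcam-positive, 4.09 ± 0.307 in Cav1-high, 4.26 ± 0.505 in fibroblast and 5.16 ± 1.19 in endothelial cells of MT1 (SD, n = 5). The stromal ratios thus overlapped those of the tumor classes. In the cells of the other tissues outside the stromal classes the ratio was 2.52 in MG1, 1.82 in MG2 and 3.29 ± 0.422 in MT2 (SD, n = 3). The UMI ratio is not corrected for how well each transcript is captured.

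Lsm8 and Tes followed another order. Lsm8 was 57.6 CPM in Epcam-positive, 68.3 in Cav1-high, 46.0 in fibroblast and 80.3 in endothelial cells, and Tes 174, 209, 111 and 265. Tes was lower in fibroblast and higher in endothelial cells than in Epcam-positive cells in each of the 5 libraries, on 26 and 55 UMIs. Wnt2 had another pattern: 22 UMIs in the 5712 Epcam-positive cells (1.31 CPM), 34 in the 952 Cav1-high cells (13.96 ± 5.64 CPM, SD, n = 5) and 17 in the 104 fibroblast cells (62.0 ± 46.4). The Cav1-high level was above the Epcam-positive level in all 5 libraries. Fibroblast cells of the other tissues also held Wnt2, with 14 UMIs in MG1 (23.1 CPM), 15 in MG2 (43.2 CPM) and 9 in MT2 (12.2 CPM).

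**Figure D3:**
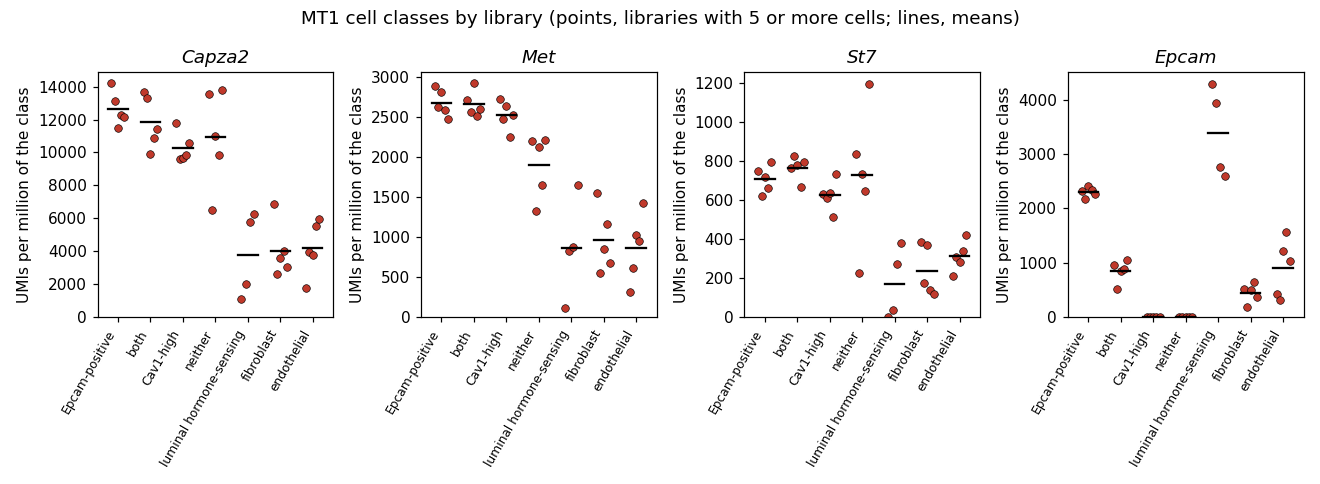
CPM (vertical axes, linear) of Capza2, Met, St7 and Epcam in the MT1 cell classes; points are libraries with at least 5 cells of the class and lines are means. Capza2, Met and St7 stay high in Cav1-high cells and in cells with neither marker, where Epcam is 0 by the rule, and are lower in the stromal and hormone-sensing classes.

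In the glands, whose library levels of Met, Capza2 and St7 were far below those of MT1, levels are given by epithelial lineage. Luminal secretory cells were set by at least 3 of 7 markers and basal cells by at least 4 of 8. Met was 192 CPM in luminal secretory cells, 47.0 in hormone-sensing and 58.0 in basal cells of MG1, and 139, 53.5 and 87.6 in MG2. The order secretory above basal above hormone-sensing was the same in both glands. Tes was highest in basal cells of both MG2 libraries (315 and 229 CPM, against 152 and 135 in secretory cells). In MG1 library 1 it was 298 in basal and 397 in secretory cells, and in library 2 364 and 157, where the basal value is 18 UMIs in 9 cells. Capza2 was 396, 192 and 178 CPM in secretory, hormone-sensing and basal cells of MG1 and 200, 198 and 213 in those of MG2, so that no order was shared. The MG1 sums were not corrected for the 7 cells described below. By their markers 3 of these count as secretory cells of library 1. These 3 held 30, 41 and 18 Met, 121, 114 and 65 Capza2 and 113, 72 and 36 Tes UMIs. The MG1 secretory values of Met, Capza2 and Tes, and the orders read from them, thus rest partly on these cells. Values by lineage without them were not worked out.

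Tumor and stromal cells of MT1 were compared in edgeR's quasi-likelihood test with Benjamini-Hochberg adjustment over 7827 genes, with library as a block, and 10.9% of genes were called higher and 13.2% lower in tumor cells (857 and 1036 genes; 1683 and 1244 with no filter on low counts, 494 and 1280 in DESeq2). Of the 5 members tested, 3 were higher and 0 lower. Capza2 was higher by 1.53 on the log2 scale (SE 0.11, adjusted p = 1.7e-45), Met by 1.497 (SE 0.12, adjusted p = 2.8e-32) and St7 by 1.33 (SE 0.16, adjusted p = 1.6e-15), in 5 of 5 libraries each. Epcam, in the same fit, was higher by 1.42. Lsm8 (-0.16, SE 0.33, adjusted p = 0.794) and Tes (-0.06, SE 0.20, adjusted p = 0.868) did not pass, and Wnt2 had too few UMIs to be tested. The smallest of these p-values rest on a spread shared across genes. Met, Capza2 and St7 were picked for their level in MT1, where 7504 of 7690 cells are on the tumor side here. Their p-values and the count of 3 higher are therefore no independent test of them.

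Epcam-positive and Cav1-high cells of MT1 differed in many genes: 31.7% of 8091 were called higher and 31.0% lower in Epcam-positive cells by the same edgeR test. Of the 5 members tested, 2 were higher and 2 lower. Capza2 was higher by 0.30 (SE 0.04, adjusted p = 1.9e-08) and St7 by 0.20 (SE 0.05, adjusted p = 0.000825), while Lsm8 (-0.35, SE 0.13, adjusted p = 0.0185) and Tes (-0.21, SE 0.08, adjusted p = 0.0259) were lower. Without the library block, St7 (adjusted p = 0.162), Lsm8 (0.189) and Tes (0.0679) were not called. Lsm8 also lost its call without MT1 replicate 1 (0.0517) or 5 (0.177), and Tes without 1 (0.180) or 4 (0.248), and both in DESeq2 (0.470 and 0.295). Met differed by 0.09 (SE 0.04, adjusted p = 0.0523) and was called with RLE size factors (0.13, adjusted p = 0.00724) in DESeq2 (0.15, adjusted p = 0.00773) and without MT1 replicate 1 (0.0166), 2 (0.0478) or 5 (0.0437). Cav2, next to the gene that set the class, was lower in Epcam-positive cells (-1.4996).

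In MT2, 13.7% of 12701 genes were called higher and 14.0% lower in tumor than in stromal cells, by the same edgeR test (1735 and 1779 genes; 838 and 1869 in DESeq2). Of the 5 members tested, 3 were higher and 0 lower. Met was higher by 1.36 (SE 0.21, adjusted p = 9.2e-06), with 155, 142 and 129 CPM in tumor cells against 35.1, 94.1 and 54.0 in stromal cells, and Lsm8 by 0.67 (SE 0.17, adjusted p = 0.00369; 0.0584 without MT2 replicate 1). Capza2 was higher by 0.41 (SE 0.13, adjusted p = 0.0148), a call lost without the block (adjusted p = 0.0723), in DESeq2 (0.0645) and without MT2 replicate 1 (0.0864) or 3 (0.258). St7 was at -0.57 (SE 0.30, adjusted p = 0.170) and Tes at 0.03 (SE 0.17, adjusted p = 0.924). MT2 tumor cells had 8.95 to 22.8 CPM of Epcam, so the tumor class of MT2 is defined by absent stromal markers and not by epithelial ones.

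Between the tissues of mouse 2, 32.8% of 13661 genes were called higher and 34.1% lower in MT2 than in MG2 by edgeR's quasi-likelihood test with Benjamini-Hochberg adjustment. Of the 6 members, 2 were higher and 1 lower (Wnt2 passed the low-count filter only through MT1), which with such a background says little of the members as a group. Capza2 was higher by 1.15 (SE 0.32, adjusted p = 0.00361), and Lsm8 by 1.88 (SE 0.32, adjusted p = 5.4e-05). Tes was lower by 0.67 on the log2 scale (-0.67, SE 0.28, adjusted p = 0.0411). The Tes call was lost with no filter on low counts (adjusted p = 0.111), in DESeq2 (0.0796) and on leaving out 1 library, in 4 of 5 cases (0.0992 to 0.201). Met (0.31, SE 0.25, adjusted p = 0.288; 0.0472 with only the MT2 and MG2 libraries in the fit) and St7 (0.39, SE 0.22, adjusted p = 0.122) did not pass. Wnt2 had 1 UMI in MG2 and 3 in MT2, too few to compare, and was called lower over all cells, stromal ones included (-2.93, adjusted p = 0.000219).

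Met and Capza2 varied together from cell to cell in MT1. Pearson's r over the cells of a library, on log counts scaled to 10000 per cell, averaged 0.457 (0.409 to 0.568 over 5 libraries, 7690 cells), and 0.390 outside the stromal classes. Thinned to equal depth it was 0.317 (0.288 to 0.366). It was 0.293 within Epcam-positive cells and 0.315 within Cav1-high cells, so it was also present inside each class. In MT2 the thinned r outside the stromal classes was 0.00465 and in MG2 0.0589, where both genes have few UMIs per cell. These values describe cells that share libraries and depth.

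Capza2 and St7 had r = 0.352 (0.320 to 0.400), and 0.275 after thinning. Met and St7 were more weakly related, at 0.0912 after thinning (0.0393 to 0.139). With Cav2, on the other side of Met, Capza2 had a thinned r of 0.242, close to its value with St7. With Lsm8 (0.0318), Tes (0.0207) and Cav1 (-0.0302) it was near 0 over all MT1 cells, and with Cav1 it was 0.316 within Cav1-high cells. Thinned MT1 cells held a mean of only 0.0532 Lsm8 and 0.175 Tes UMIs, which limits how large r can be for these genes.

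With Capza2 seen in nearly every MT1 cell, its joint shares there could differ little from the product of the single shares. After thinning, 83.8% of MT1 cells had both Met and Capza2, against 83.2% from the product of the single shares, 44.8% had Capza2 and St7 (product 44.4%), and 38.9% had Met and St7 (product 37.8%). Unthinned, 94.8% of cells had both Met and Capza2. In MT2 4.71% of thinned cells had both (product 4.51%) and in MG2 2.27% (product 1.70%). In MG1 it was 2.81% in library 1 (product 2.02%), with the 7 cells described below, and 0 of 105 cells in library 2.

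**Figure D4:**
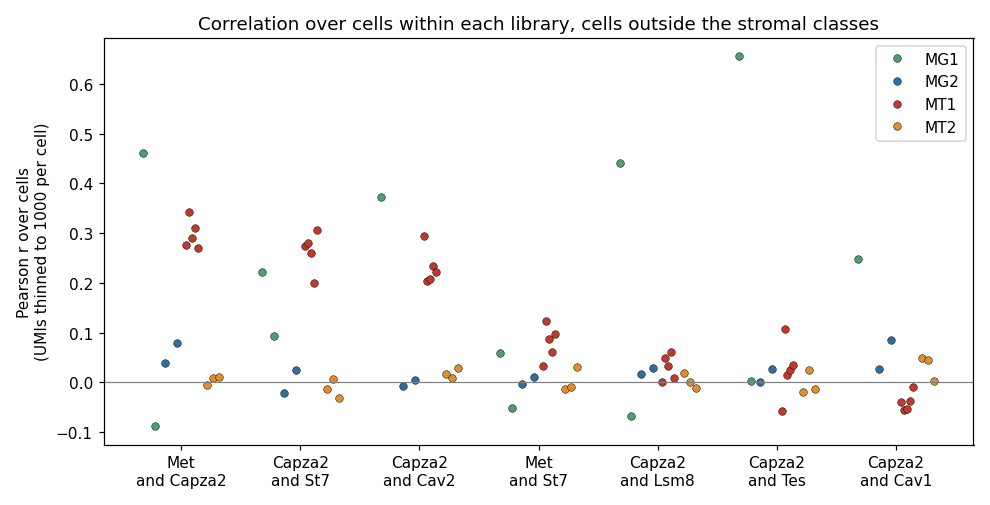
Pearson r over the cells of each library outside the stromal classes, UMIs thinned to 1000 per cell (vertical axis), for 7 gene pairs; points are libraries. The 5 MT1 libraries lie together above 0 for Met, Capza2, St7 and Cav2 pairs with Capza2, MT2 lies near 0, and the highest MG1 points come from library 1.

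Among the 5808 genes seen in at least 5% of MT1 cells, the genes most like Capza2 were its chromosomal neighbors. Met (r = 0.457), St7 (0.352) and Cav2 (0.274) ranked 1 to 3, followed by the lipid-binding protein gene Fabp5 (0.209), the ferritin gene Fth1 (0.201), B2m (0.186) and Epcam (0.183). Wfdc18 (0.172), Cp (0.167) and Serpine2 (0.167) closed the first 10. Met, St7, Cav2 and Fabp5 kept ranks 1 to 4 outside the stromal classes and after thinning, while Wfdc18 moved to rank 4503 after thinning. Across all these genes the median r was 0.0122 and the central 95% lay between -0.0739 and 0.0785. Tes ranked 877 (0.0387), Lsm8 896 (0.0382) and Cav1 5631 (-0.0659), and Wnt2 was in too few cells to be ranked. The ranks of Tes and Lsm8 are also limited by their few UMIs per cell.

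Along chromosome 6, the neighbors with the high level in MT1 were Cav2, Cav1, Met, Capza2 and St7, and, at low counts and outside the stromal classes, Wnt2 and Asz1 past St7. Over pooled UMIs outside the stromal classes, the MT1 to MG1 ratio was 14.1 for Cav2, 77.4 for Cav1, 16.6 for Met, 26.8 for Capza2 and 43.6 for St7. The Cav1 level was uneven over the cells of MT1, at 76.9 CPM in the Epcam-positive class against 2189 over all cells outside the stromal classes, and 28.3 in MG1. The MT1 to MG1 ratio was 0.427 for Tes, on one side, and 0.977 for Lsm8, on the other. All these MG1 sums include the 7 MG1 cells described below, which held 621 of the 1406 Capza2 and 78 of the 214 Cav2 UMIs. From MG2 to MT2 the ratios were 1.12 for Met, 2.01 for Capza2, 1.19 for St7 and 0.570 for Tes, with 11.5 for Cav1, 3.50 for Cav2 and 3.34 for Lsm8. Several small genes that lie within or beside St7 followed it: Gm27960 had 74 UMIs in MT1 and 0 in MT2, Gm27365 71 and 0, Gm43844 154 and 13, and Gm43533 116 and 13. Asz1, past Wnt2, had 34 UMIs in MT1 and 0 in the other 3 tissues. Strand use in counting was not given in the sources used here, so reads of overlapping genes cannot be told apart from those of St7.

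In MG1, 7 cells of library 1 stood apart, with high Capza2 by the rule above and at least 20 Capza2 UMIs. They were singled out after their values were seen, and are 0.982% of the 713 cells of that library. They held 34 to 140 Capza2 UMIs, 9 to 41 Met, 27 to 267 Tes, 3 to 31 Lsm8, 0 to 5 St7 and 0 to 20 Cav2 UMIs. They had 4200 to 21402 UMIs in all, where the other cells of the library had a median of 3282. All 7 had 10 to 84 Epcam UMIs and 6 to 8 of 8 epithelial markers, and their barcodes occurred in no other library.

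The 7 cells had high Tes and Lsm8, unlike MT1. Against the other 811 MG1 cells, they had 8310 CPM of Tes (204 in the others, 40.8-fold), 1158 of Lsm8 (25.9, 44.7-fold), 7903 of Capza2 (251, 31.5-fold), 2151 of Met (99.8, 21.6-fold) and 204 of St7 (12.9, 15.7-fold). Tumor cells of MT1 had 181 CPM of Tes and 55.2 of Lsm8. Wnt2 had 0 UMIs in them. Of the neighbors, Gm4876, antisense to Tes, was 40.5-fold (6 UMIs in the 7 cells), Cav2 24.9-fold, Gm20186 7.98-fold, Gm26809 5.10-fold (4 UMIs) and Cav1 4.32-fold higher, while Fam3c, near the far end of the window, was 0.867-fold. Capza2 chose these cells, so its fold is a description.

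Among the 664 genes with at least 20 UMIs in the 7 cells, Lsm8 and Tes ranked 2 and 3 by fold, Capza2 7, Cav2 10 and Met 11. The other leading genes lie on other chromosomes: Serpine2 (47.9-fold), Fabp5 (38.7-fold), Atp6v1c2 (37.6-fold), Col11a1 (36.6-fold), Cdkn2a (27.5-fold) and Bmp2 (26.2-fold). These are folds of pooled UMIs and not traits of each cell. Bmp2 was seen in 2 of the 7 cells, Serpine2 in 4, Fabp5, Col11a1 and Cdkn2a in 5 each and Atp6v1c2 in 6. No cell of MT1 or MT2 held 20 or more Tes UMIs, against 10 cells of MG1 and 1 of MG2, and the highest MT1 cell held 9. At least 5 Tes UMIs after thinning were seen in 6 MG1 cells and in 0 cells of the other tissues.

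These cells carry much of the MG1 level. They hold 43.2% of the Capza2, 34.6% of the Met, 31.4% of the St7, 51.1% of the Lsm8 and 50.7% of the Tes UMIs of library 1, over all its cells. Without them the MG1 means outside the stromal classes were 217 CPM for Capza2, 93.9 for Met, 15.4 for St7, 24.2 for Lsm8 and 205 for Tes. The ratio of MT1 to MG1 then moved from 37.1 to 56.4 for Capza2, from 21.1 to 27.8 for Met and from 38.4 to 45.5 for St7, beside the moves of Lsm8 and Tes given above. The thinned correlation of Met and Capza2 in library 1 fell from 0.461 over 610 cells to -0.00445 over 603, and that of Capza2 and Tes from 0.655 to 0.164.

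**Figure D5:**
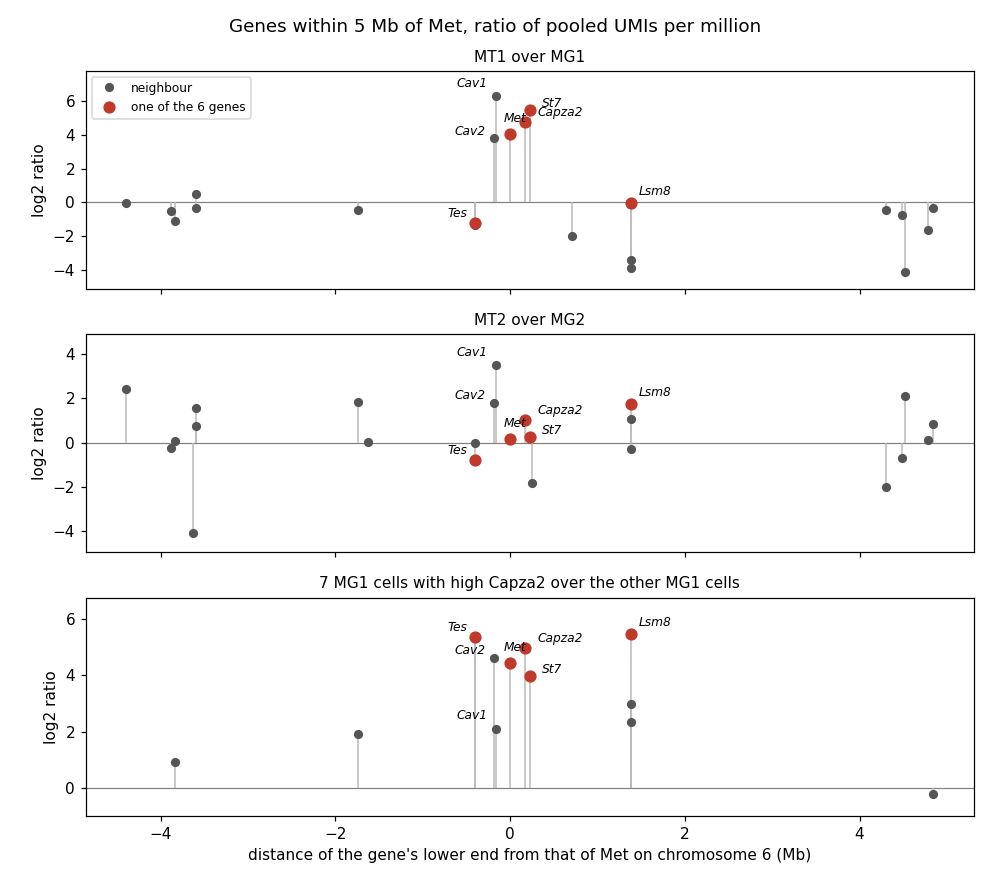
Log2 ratio of pooled CPM (vertical axes) for genes within 5 Mb of Met, by distance of the gene's lower end from that of Met in Mb (horizontal axis), for MT1 over MG1, MT2 over MG2 and the 7 MG1 cells over the other MG1 cells. Red points are members; ratios that are only bounds are left out. In MT1 Cav2, Cav1, Met, Capza2 and St7 stand out, and in the 7 cells Tes and Lsm8 do so too.

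Outside the stromal classes, Hgf, the Met ligand, was 5.38 ± 0.848 CPM in MT1 (SD, n = 5) and 84.2 ± 3.16 in MT2 (SD, n = 3). It was 14.5 in MG1 and 14.2 in MG2. MT1 thus had the highest Met and the lowest Hgf in these sums, which leave out the fibroblast class. A relation of Met and Hgf was not tested. Within MT1, Hgf was lower by 4.84 on the log2 scale in Epcam-positive than in Cav1-high cells (-4.84, adjusted p = 3.3e-16). Spint2, an inhibitor of the proteases that activate Hgf, was 179 CPM in MT1 and 0.341 in MT2, and St14, such a protease, 133 and 0.437.

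Of 41 Met signalling genes tested, 9 were higher and 17 lower in MT2 than in MG2 (median log2 difference -0.11, all genes -0.04; 32.8 and 34.1% of all genes were called), with Spint2 at -9.13 (adjusted p = 7.4e-14) and St14 at -8.34 (adjusted p = 6.4e-14) by edgeR. In tumor against stromal cells of MT1, 9 of 35 were higher and 4 lower (median 0.08, all genes 0.14; 10.9 and 13.2% of all genes), among them Itgb4 at 1.42 (adjusted p = 0.00451). In Epcam-positive against Cav1-high cells, 12 of 37 were higher and 12 lower (median -0.10, all genes 0.02; 31.7 and 31.0% of all genes). In MT2 tumor against stromal cells, 3 of 38 were higher and 6 lower (13.7 and 14.0% of all genes).

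Of the actin capping genes, which include the beta subunit gene Capzb, 10 of 16 were higher and 3 lower in MT2 than in MG2 (median 0.63; 32.8 and 34.1% of all genes). Sh3kbp1, the gene of an adaptor protein of that list, was 281 ± 15.9 CPM in MT1 (SD, n = 5), 118 in MT2, 23.5 in MG1 and 25.02 in MG2. In Epcam-positive against Cav1-high cells 2 of 16 were higher and 9 lower (median -0.25; 31.7 and 31.0% of all genes). Capzb was at -1.40 (adjusted p = 6.4e-22), the opposite sign to Capza2 at 0.30. In MT1 tumor against stromal cells 2 of 15 were higher and 2 lower (10.9 and 13.2% of all genes), and in MT2 1 of 16 and 3 (13.7 and 14.0%).

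The Lsm list held Lsm1 to Lsm7, of which Lsm1 takes the place of Lsm8 in the cytoplasmic ring. All 7 were higher in MT2 than in MG2, like Lsm8 (median 1.15, against -0.04 for all genes; 32.8% of all genes were higher), including Lsm2 at 1.84 (adjusted p = 6.2e-07), and 6 of 7 were higher in MT2 tumor than stromal cells (median 0.73; 13.7% of all genes). In Epcam-positive against Cav1-high cells of MT1 1 of 7 was higher and 4 were lower (median -0.42; 31.7 and 31.0% of all genes), with Lsm8 at -0.35. In MT1 tumor against stromal cells 1 of 7, Lsm4 at 0.83 (adjusted p = 0.00379), was higher and 0 were lower (10.9 and 13.2% of all genes).

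For the 45 chromosome 6 neighbors, members left out, no count is given for MT2 against MG2, since some, such as Gm27960 and Gm27365, had 0 UMIs in both and passed the filter only through MT1. In MT1 tumor against stromal cells 2 of 10 were higher, Cav1 (1.71) and Cav2 (1.53), and 3 lower (10.9 and 13.2% of all genes), beside Capza2 at 1.53. The Cav1 difference did not hold for the Epcam-positive class. Cav1 was 76.9 CPM there, against 658 in fibroblast and 589 in endothelial cells. In MT2 tumor against stromal cells 5 of 17 were higher and 2 lower (13.7 and 14.0%). No count is given for Epcam-positive against Cav1-high cells, since Cav1 is one of these neighbors and sets the class.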

How the data were processed

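Drop-seq data of 12 libraries (MG1 2, MG2 2, MT1 5, MT2 3) were used. Per the study's methods, the authors processed reads with Drop-seq tools, aligned them with STAR to GRCm38.p6 and merged the libraries, and deposited 1 table of raw UMI counts per gene and cell, which is the unit used here. Each cell's library was read from its name; library numbers in a tissue are names only. The 6 members, the gene lists and the marker rules were chosen with earlier results of these data known.

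UMIs were summed per library and cell class. The tests used R 4.3.3 and the package edgeR, version 4.0.16 (its quasi-likelihood test, with TMM, low-count filter, adjusted p under 0.05); fits within a tissue had the library as a block, since both classes come from the same libraries, and MT2 against MG2 had none. DESeq2 1.42.0 was an alternative, and the fits were tested on simulated data. Thinning (1000 UMIs per cell, seed 18), shares and correlations used numpy 2.4.6 and scipy 1.17.1. A fold against a group at 0 counts was a bound at 3 counts. Named genes were the members, the 10 genes most like Capza2 in MT1 and, per list, the 3 called genes with the largest change. The 7 MG1 cells were singled out, and the MG1 levels without them worked out, after their values were seen. The edgeR fits were not repeated without them. UMI counts carry counting error, and no interval covers differences between animals. Proteins of the members were not used here.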

Additional observations from a re-analysis of the deposited data

Results flagged for a closer look

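The correlation of Met and Capza2 over the cells of a library was 0.568 in 1 MT1 library and 0.409 to 0.449 in the other 4, a gap that set this library apart from the rest. The Met level in stromal cells of MT1 was 579 CPM in library 2 and 934 to 1078 in the other 4. In these checks of 16 groups of 5 libraries, about 1 in 20 would stand apart by chance.

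St7 in tumor against stromal cells had opposite signs in the 2 tumors. The log2 difference was 1.33 in MT1, with St7 higher in tumor cells in 5 of 5 libraries, and -0.57 in MT2, with St7 lower in 3 of 3 libraries. The difference between the tumors was not tested.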

How the results depend on the processing

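Of 199 member differences under alternative settings, 155 kept their sign and side of the threshold, 23 lost a call, 9 gained one and 12 changed sign. Of 38 counts of called genes, 35 were within 1.5 times the main count (9138 for MT2 against MG2, 1893 for MT1 tumor against stromal cells, 5076 for Epcam-positive against Cav1-high cells and 3514 for MT2 tumor against stromal cells). The MT1 tumor against stromal count was 2927 with no filter and 1456 to 2173 leaving out a library, and the MT2 one 1848 to 3424. With no library block the counts were 1864, 4563 and 3084. The share of MT1 cells with high Capza2 (95.2%) was 82.4% thinned to 500 UMIs, 97.4% above the 95th percentile and 94.7 to 95.8% leaving out a library. The Met and Capza2 correlation (0.457) was 0.317 thinned, 0.390 outside stromal classes and 0.429 to 0.469 leaving out a library. With no filter the log2 differences shifted by a median of 0.31 in MT1 tumor against stromal cells, 0.16 in MT2 ones and 0.12 in Epcam-positive against Cav1-high cells (0.10 in DESeq2 for the first). Signs changed for Lsm8, Tes and Wnt2. In MT1 tumor against stromal cells Lsm8 was 0.15 with no filter and -0.39 to 0.0048 leaving out a library, and Tes 0.25 with no filter, 0.00065 with RLE, 0.033 in DESeq2 and -0.16 to 0.16 leaving out a library. In MT2 ones Tes was -0.016 with RLE, -0.0088 in DESeq2, -0.10 with stricter marker rules and -0.088 to 0.16 leaving out a library. Wnt2 in MT2 against MG2 (4 UMIs) was -1.40 to 2.22 leaving out a library. Depth limits St7, Lsm8 and Wnt2 in single cells.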
